A study of Mus musculus with 4 samples.

Results

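The 8 genes described here encode the proteins that detect broken or unreplicated DNA and pass the signal to p53. They are the sensor kinases Atm, Atr and Prkdc, the mediators Mdc1 and Trp53bp1, the checkpoint kinases Chek1 and Chek2, and Trp53 itself. They were chosen by gene symbol, as 8 of the 32285 genes counted in single cells of mouse ovaries. The study gave mice doxorubicin, an anthracycline chemotherapy drug that traps topoisomerase II on DNA, with or without recombinant human AMH (anti-Müllerian hormone), a hormone made by granulosa cells of growing follicles. There were 4 groups: control mice given PBS/saline, mice given doxorubicin at 3 mg/kg in 2 weekly doses from postnatal day 25, mice given the same doxorubicin with AMH at 0.75 mg/kg, and mice given AMH at 0.75 mg/kg alone. Ovaries were taken 4 h after the last dose. Each group is 1 library, made from 1 ovary of each of 5 animals pooled before papain and collagenase digestion and mechanical dissociation, so differences between animals cannot be seen and no test between groups is possible. The mouse strain and the route of dosing are not given in the sources used here.

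As background, double-strand breaks recruit and activate ATM through the MRN complex and DNA-PKcs, the product of Prkdc, through the Ku proteins that hold broken ends together. ATR, with its partner ATRIP, responds to single-stranded DNA coated with RPA, as at stalled replication forks. ATM marks the chromatin beside a break with phosphorylated histone H2AX, which MDC1 binds and from which 53BP1 (Trp53bp1) is then brought in. ATM activates CHK2 and ATR activates CHK1, and both kinases hold the cell cycle by restraining CDC25 phosphatases. The kinases also stabilise p53 by phosphorylating it and its regulators, so that most of this signal is carried by protein modification and not by the amount of mRNA. p53 then drives transcription of Cdkn1a, Mdm2 and other targets. In the ovary the pathway is best known from oocytes, in which CHK2 acts on the p53 relative p63 (Trp63) to remove damaged primordial follicles, while granulosa cells are the main dividing cells of growing follicles.

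The promoters of 3 of these genes are shown because Chek1, Chek2 and Mdc1 had the largest differences of the 8 genes between granulosa-like cells with many and with few cell cycle transcripts (values further on). Each is 250 bases before to 50 bases after the start site, read 5′ to 3′ on the gene's own strand, from RefSeq on build GRCm38.p6. The table matched 7 of the 8 genes, and Prkdc was not matched. Capitals mark TTCCCGC, the core of a binding motif of E2F factors, which drive S phase genes, read on either strand, together with the extra base where it forms the longer motif TTTCCCGC.
Chek1, chr9:36726609-36726908, minus strand: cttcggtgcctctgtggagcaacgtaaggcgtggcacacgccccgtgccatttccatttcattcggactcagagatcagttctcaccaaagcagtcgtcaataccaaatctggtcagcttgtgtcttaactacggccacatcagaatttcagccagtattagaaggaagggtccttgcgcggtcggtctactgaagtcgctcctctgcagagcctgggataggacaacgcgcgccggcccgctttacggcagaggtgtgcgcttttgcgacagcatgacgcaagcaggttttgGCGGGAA
Chek2, chr5:110839733-110840032, plus strand: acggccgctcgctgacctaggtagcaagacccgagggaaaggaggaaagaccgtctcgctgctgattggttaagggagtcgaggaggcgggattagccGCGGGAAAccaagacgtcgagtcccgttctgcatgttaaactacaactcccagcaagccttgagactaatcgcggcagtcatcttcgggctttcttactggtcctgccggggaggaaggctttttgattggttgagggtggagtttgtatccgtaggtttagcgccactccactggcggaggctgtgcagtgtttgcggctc
Mdc1, chr17:35841248-35841547, plus strand: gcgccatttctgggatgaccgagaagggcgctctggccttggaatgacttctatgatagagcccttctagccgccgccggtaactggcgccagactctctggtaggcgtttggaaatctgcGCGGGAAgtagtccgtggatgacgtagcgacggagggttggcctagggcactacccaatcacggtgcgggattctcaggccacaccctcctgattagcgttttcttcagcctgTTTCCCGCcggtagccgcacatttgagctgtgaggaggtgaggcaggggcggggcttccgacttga
TTCCCGC begins 44 bases after the start site of Chek1 on the opposite strand. In Chek2 it begins 152 bases before the start site, again on the opposite strand, and in Mdc1 it occurs 129 bases before the start on the opposite strand and 15 bases before it on the gene's strand. The Atm promoter also holds it, 16 bases after the start. The core occurs in 4.60% of the 32851 promoters of this length in the table, and the longer TTTCCCGC, whose matches are also matches of the core, in 1.07%. The search also covered the E2F forms TTTCGCGC, TTTGGCGC and TTTGCCGC, which were not found in the 7 promoters, and any of the 4 long forms occurs in 2.26% of all promoters. Of the forms TTTGAA and TTCGAA of the CHR, an element of G2/M promoters, TTCGAA lies at position -215 from the start of Atr, and either form occurs in 19.2% of all promoters. The core was added to the search after these promoters had been read, so its count among them is a description. Each of these matches is a run of letters and not a measured site.

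In build GRCm38 with the GENCODE vM21 annotation, which pairs all 8 gene IDs of the files with the same symbols, Atm (9:53439149-53536740), Atr (9:95857597-95951781) and Chek1 (9:36708482-36727065) lie on chromosome 9. Prkdc lies at 16:15637866-15842235, Chek2 at 5:110839979-110874145, Trp53 at 11:69580359-69591873, Trp53bp1 at 2:121193281-121271407 and Mdc1 at 17:35841515-35859670. Counted on the annotated transcript with the most bases, whether coding or not, exons ran from 5 (Trp53) to 86 (Prkdc). The 3′ end of Trp53bp1 shares 2130 exonic bases with Tubgcp4 on the opposite strand. Atr shares 726 exonic bases with the antisense gene 1700065D16Rik and 462, at its 3′ end, with the antisense gene Gm16794. Reads from these overlaps could not be told apart unless counting used strand, which is not stated, so the levels of Trp53bp1 and Atr are uncertain to that extent.

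The libraries held 7141 to 9478 cell barcodes and 138647495 to 178279122 unique molecular identifiers (UMIs, tags that count each captured transcript once). Any pair of libraries shared between 11 and 24 barcode sequences. After removal of low-quality barcodes and likely doublets, 28451 of 33639 cells remained in 31 clusters, of which 30 were named from marker genes as 11 classes, written with "-like". The 6 classes with at least 50 cells in every library were compared. They were granulosa-like cells (2162, 2198, 2336 and 3066 cells, in the library order used throughout: control, doxorubicin, then doxorubicin+AMH, then AMH), stroma-like cells (3060, 2184, 2150 and 2191), theca-like cells, mural smooth muscle-like cells, blood endothelial-like cells and macrophage-like cells. No marker of a class was at 0 in that class in any library. Levels are in CPM, the UMIs of a gene per 1000000 UMIs of the summed class, and each gene is compared only with itself. The 8 genes gave between 1299 (Chek2, doxorubicin) and 13090 (Trp53, AMH) UMIs per library over all deposited cells. Erythroid-like cells, which carry little RNA besides globin, held 0 UMIs of Chek1 in all 4 libraries (exact 95% upper limits of 10.4, 9.11, 7.60 and 20.04 CPM) and 0 to 11 UMIs of each of the other genes. These limits lie above the Chek1 means of 4 of the 6 compared classes, the highest of them 6.44 CPM in blood endothelial-like cells, so they do not tell such levels from background.

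UMIs of all 8 genes were found in each of the 6 classes and 4 libraries, and the class with the highest mean over the 4 libraries was granulosa-like for 7 of them. The exception was Chek2, at 12.9 ± 5.29 CPM in blood endothelial-like and 10.8 ± 1.29 in granulosa-like cells (SD, n = 4 libraries), with overlapping ranges. These SDs hold the differences between treatments as well as between libraries. With edgeR's quasi-likelihood test on summed UMIs with the library as a block and adjusted over 18151 genes, granulosa-like cells were higher for 5 of 8 genes against theca-like, 6 of 8 against stroma-like, 6 of 8 against mural smooth muscle-like, 6 of 8 against blood endothelial-like and 7 of 8 against macrophage-like cells, and lower for 0 (the count at an unadjusted p under 0.05 was also 0, and DESeq2 called 0 lower). Without the control library the theca-like count was 3, with Atm and Atr lost, and without the AMH library the macrophage-like count was 4, with Atm, Atr and Prkdc lost. Of all genes tested, 29.7%, 32.6%, 31.7%, 31.8% and 32.3% were higher in granulosa-like cells in these comparisons. Of the 18151 genes, 5521, 6150, 6040, 5343 and 4704 were lower, in the same order.

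**Figure D1:**
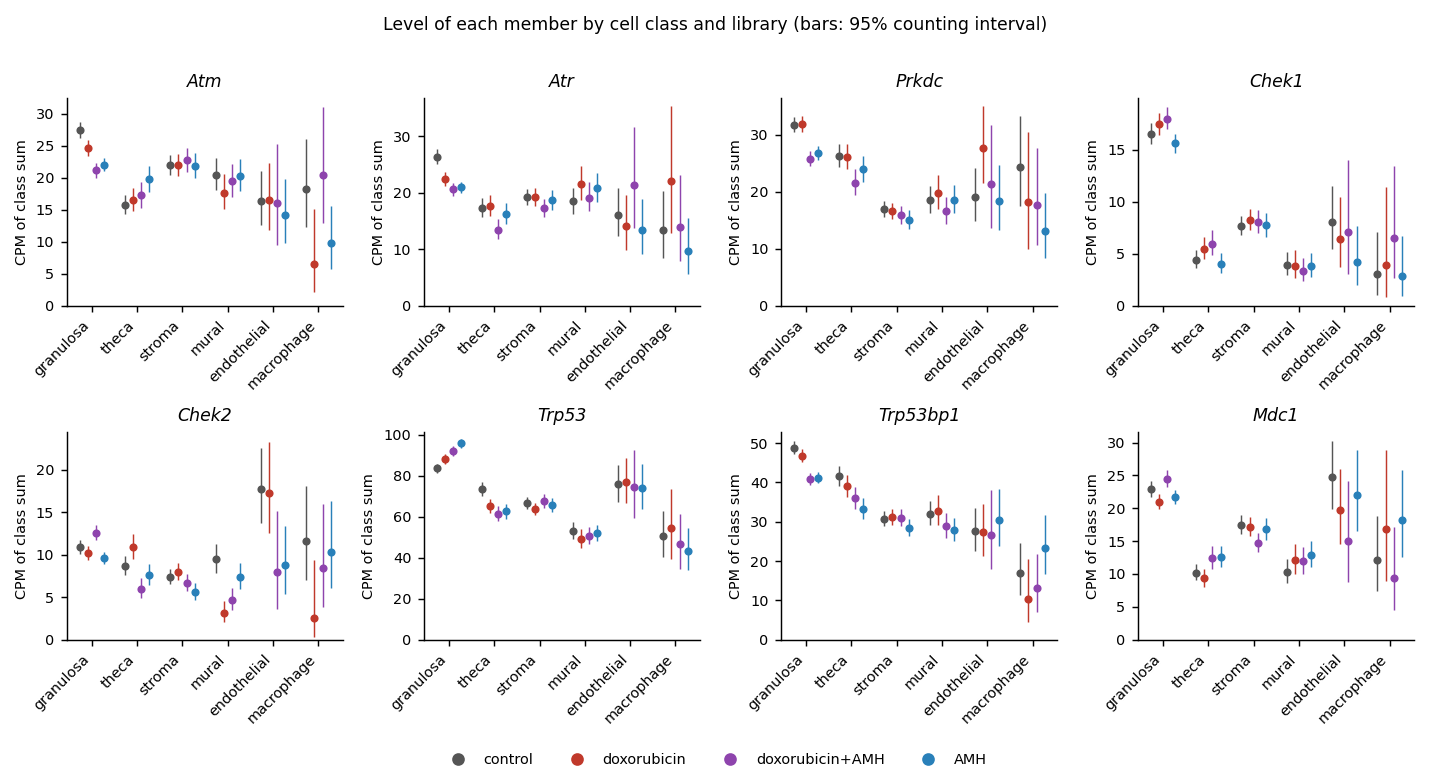
CPM of each of the 8 genes (panels, y axis from 0) in the 6 compared cell classes (x axis), with 1 point per library coloured by treatment and bars for the 95% counting interval. Chek1 shows the clearest separation, with all 4 granulosa-like values between 15.6 and 18.0 CPM and all stroma-like values between 7.63 and 8.21 CPM.

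Among the sensor kinases, Prkdc had its highest mean in granulosa-like cells (29.0 ± 3.23 CPM), next to theca-like (24.5 ± 2.20) and above stroma-like cells (16.1 ± 0.821). The granulosa-like and theca-like ranges overlapped, and the difference between them was 0.11 on the log2 scale (adjusted p = 0.31, edgeR), while that against stroma-like cells was 0.82 (adjusted p = 2.1e-07). Atm varied less between classes. It was at 23.8 ± 2.85 CPM in granulosa-like and 22.1 ± 0.428 in stroma-like cells, a log2 difference of 0.09 (adjusted p = 0.56), and its lowest mean was 13.7 ± 6.71 in macrophage-like cells. Atr followed a similar order, from 22.6 ± 2.66 CPM in granulosa-like to 14.8 ± 5.19 in macrophage-like cells, and no neighbours in that order were separated in range. For Atm, only stroma-like and mural smooth muscle-like cells (19.5 ± 1.29) among neighbours in the order did not overlap.

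The mediator Mdc1 was at 22.5 ± 1.56 CPM in granulosa-like and 20.4 ± 4.09 in blood endothelial-like cells, which did not differ beyond their spread (log2 difference 0.12, adjusted p = 0.59, higher in 2 of 4 libraries). Its level in theca-like cells was 11.1 ± 1.60, a log2 difference of 0.89 (adjusted p = 2.8e-06, higher in granulosa-like cells in 4 of 4 libraries). Trp53bp1 ran from 44.4 ± 3.99 CPM in granulosa-like and 37.4 ± 3.65 in theca-like cells to 16.0 ± 5.68 in macrophage-like cells. Its largest class difference was therefore against macrophage-like cells, at 1.21 (SE 0.14, adjusted p = 3.2e-07).

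Chek1, the kinase downstream of ATR, differed most between classes. Granulosa-like cells read 16.5, 17.5, 18.0 and 15.6 CPM, and the class with the next highest mean, stroma-like cells, read 7.63, 8.21, 8.04 and 7.71. The 2 sets did not overlap. The log2 difference was 1.08 against stroma-like cells (SE 0.11, adjusted p = 5.8e-08), 1.65 against theca-like (SE 0.12, adjusted p = 2.6e-10) and 2.13 against mural smooth muscle-like cells (SE 0.13, adjusted p = 1.7e-11), each in 4 of 4 libraries. Chek2, the kinase downstream of ATM, was higher in granulosa-like than in stroma-like (0.64, SE 0.23, adjusted p = 0.017) and mural smooth muscle-like cells (0.76, SE 0.24, adjusted p = 0.010), and its differences from theca-like, blood endothelial-like and macrophage-like cells did not pass the threshold. Leaving out the control, the doxorubicin+AMH or the AMH library ended the stroma-like call of Chek2 (edgeR adjusted p = 0.053, 0.090 and 0.073), and leaving out doxorubicin+AMH ended the mural one (adjusted p = 0.11).

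Trp53 was higher in granulosa-like cells than in each of the other 5 classes. The mean was 89.96 ± 5.28 CPM there (SD, n = 4 libraries). Blood endothelial-like cells followed at 75.4 ± 1.35, stroma-like cells at 66.0 ± 1.60 and theca-like cells at 65.6 ± 5.40. The lowest means were those of mural smooth muscle-like (51.3 ± 1.71) and macrophage-like cells (48.8 ± 4.78). In this order the ranges of stroma-like and theca-like cells overlapped, as did those of mural and macrophage-like cells, and the other 3 neighbouring pairs did not. The log2 differences of granulosa-like cells were 0.28 against blood endothelial-like (adjusted p = 0.0047) to 0.76 against mural smooth muscle-like cells (adjusted p = 2.5e-08), each in 4 of 4 libraries.

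Granulosa-like cells were then divided by cell cycle transcripts, using lists of S phase and G2/M genes that contain none of the 8. After each cell was thinned to 2000 UMIs, cells with at least 5 UMIs of the lists (cycle-gene-high cells) were set against the rest. They made up 52.4% (95% exact binomial interval 50.2 to 54.5), 55.5% (53.3 to 57.6), 61.1% (59.0 to 63.1) and 59.2% (57.4 to 61.0) of granulosa-like cells in the 4 libraries. The division is a range and not a type, and 1987 of 9324 cells (21.3%) lay at 4 or 5 UMIs, beside the boundary. In the edgeR test with the library as a block, 6 of the 8 genes were higher in cycle-gene-high cells and 0 were lower (2 at an unadjusted p under 0.05 were not called, Atr above and Trp53bp1 below), beside 26.4% of 17070 genes that were higher. Of the 17070 genes, 4310 were lower.

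Chek1 read 23.0, 24.3, 23.8 and 20.03 CPM in cycle-gene-high cells and 7.02, 7.70, 6.46 and 8.20 in the other granulosa-like cells, a log2 difference of 1.65 (SE 0.09, adjusted p = 3.7e-07, edgeR). Chek2 read 14.2, 13.6, 15.8 and 12.1 against 6.03, 5.19, 5.94 and 5.26, a difference of 1.34 (SE 0.07, adjusted p = 3.5e-07). Mdc1 read 29.5, 26.7, 30.9 and 26.5 against 13.1, 12.6, 11.6 and 13.7, a difference of 1.18 (SE 0.07, adjusted p = 1.0e-06). For these 3 genes every cycle-gene-high value lay above every other value. How many of all genes separate in this way was not counted. The other 5 of the 8 moved less. Prkdc differed by 0.45 (adjusted p = 4.2e-05), Atm by 0.25 (adjusted p = 0.0017) and Trp53 by 0.13 (adjusted p = 0.0045). Atm was not called with the boundary at 3 cell cycle UMIs (0.15, edgeR adjusted p = 0.058), and neither Atm (adjusted p = 0.057) nor Trp53 (adjusted p = 0.27) was called without the library block. Atr (0.12, adjusted p = 0.075) and Trp53bp1 (-0.09, adjusted p = 0.072) were not called. Cycle-gene-high cells were also deeper, with median UMIs of 19066.5 to 27833 against 15406.5 to 20582 in the others, and the part of depth in the differences was not tested.

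**Figure D2:**
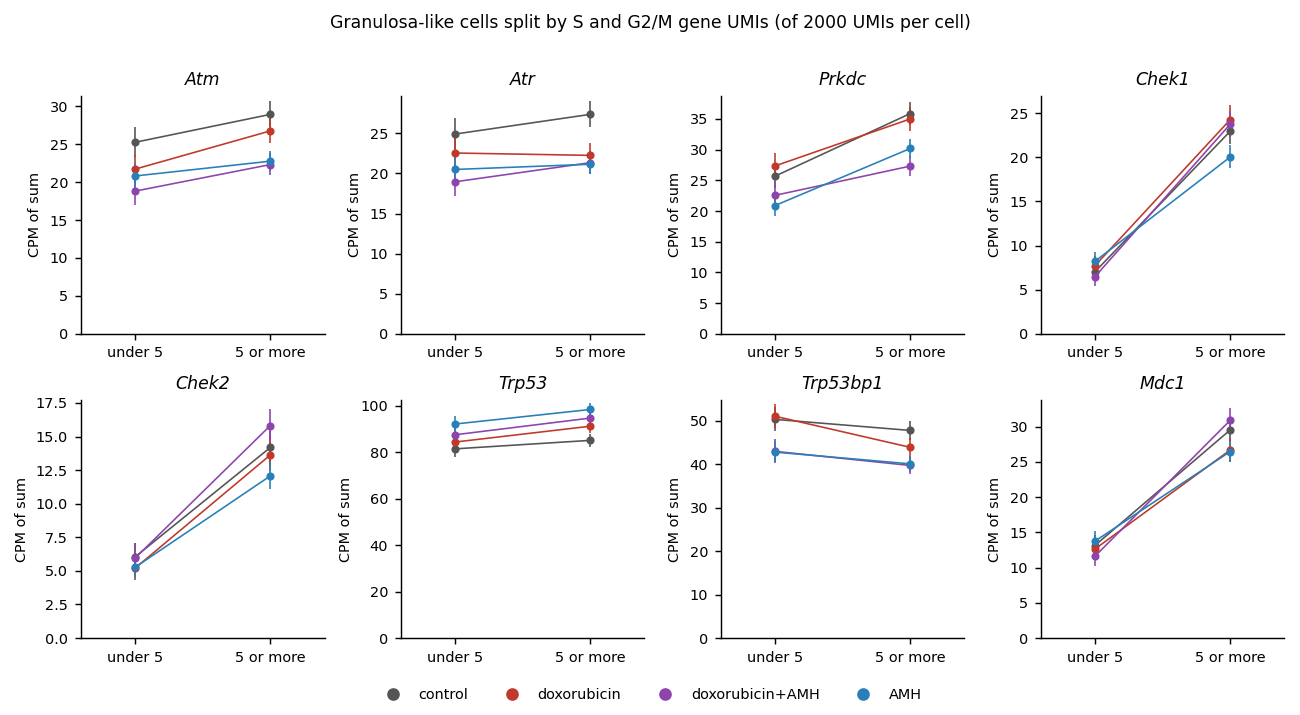
CPM of the 8 genes (y axis) in granulosa-like cells with at least 5 cell cycle UMIs after thinning and in the other granulosa-like cells, with 1 point per library, bars for the 95% counting interval and lines joining the 2 values of a library. The values of Chek1, Chek2 and Mdc1 do not overlap between the 2 groups, which was not counted over all genes. Trp53bp1 is slightly lower in the first group in 4 of 4 libraries.

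Chek1 also differed between clusters, for which cell cycle transcripts were not summed. The granulosa-like cluster led by Kcnq5, Nr5a2 and Bmpr1b read 5.4996, 6.77, 5.58 and 7.17 CPM of Chek1, while the cluster led by Inhba, Inhbb and Hsd17b1 read 23.6, 18.9, 21.6 and 19.5, that led by Fst and Mctp1 22.1, 20.9, 18.2 and 19.4, and that led by Cntn4, Amh and Slc18a2 19.8, 20.9, 26.5 and 19.6. These clusters were chosen for mention after their Chek1 values were seen.

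The main question of the design is what doxorubicin changed 4 h after the second dose. In granulosa-like cells none of the 8 genes differed by 1.5-fold or more between the doxorubicin and control libraries (0 of 8, beside 0.787% of 10670 genes), and none did in stroma-like cells (0 of 8, beside 1.34% of 11156 genes). With AMH in both libraries the count was also 0 of 8 in each class, beside 1.87% and 1.69% of all genes. The makeup of granulosa-like cells differed between libraries, since a cluster led by Cntn4 and B230209E15Rik held 1, 174, 0 and 0 cells and one led by Amh, Wfdc10 and Aard 1, 77, 0 and 0. Without both clusters the 8 ratios of doxorubicin to control in granulosa-like cells lay between -0.24 (Atr) and 0.10 (Chek1). With 1 library per group, every ratio between libraries below is given as a log2 ratio with a 95% interval from an exact test of 2 counts, which covers counting error and not the difference between animals or library preparations. No p-value can be given.

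Of the sensor kinases in granulosa-like cells, Atm was at 27.4 CPM in control and 24.7 in doxorubicin (log2 ratio -0.15, interval -0.25 to -0.05) and Atr at 26.4 and 22.4 (-0.24, -0.34 to -0.13). Prkdc was at 31.7 and 31.8 (0.00, -0.09 to 0.09). In stroma-like cells Atm read 21.9 in both libraries and Atr 19.2 in both, and Prkdc read 16.9 and 16.5 CPM, with intervals that all include 0. The lower Atr in granulosa-like cells held the same sign inside the 4 largest granulosa-like clusters, with log2 ratios of -0.16, -0.44, -0.21 and -0.14. With AMH in both libraries (doxorubicin+AMH against AMH, which shares no library with doxorubicin against control), Atm and Atr in granulosa-like cells were at -0.06 (-0.16 to 0.04) and -0.02 (-0.13 to 0.08), so that a lower level after doxorubicin was not seen there.

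The mediators showed small differences. Mdc1 in granulosa-like cells was at 22.9 CPM in control and 20.9 in doxorubicin (-0.13, -0.24 to -0.02), but at 21.7 in AMH and 24.5 in doxorubicin+AMH (0.18, 0.08 to 0.28). Trp53bp1 was at 48.8 and 46.8 (-0.06, -0.13 to 0.01) and at 41.2 and 40.9 (-0.01, -0.09 to 0.06). In stroma-like cells both genes had intervals that include 0 in both comparisons.

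Of the checkpoint kinases in granulosa-like cells, Chek1 was at 16.5 CPM in control and 17.5 in doxorubicin (0.08, -0.04 to 0.20), and Chek2 at 10.9 and 10.2 (-0.10, -0.26 to 0.06). With AMH in both libraries, Chek1 was at 15.6 without and 18.0 with doxorubicin (0.21, 0.09 to 0.32), and Chek2 at 9.58 and 12.6 (0.39, 0.24 to 0.54). Cell cycle transcripts moved with these last values. In the same comparison 52 of 52 G2/M genes that passed the filter lay above 0 (median 0.44) and 41 of 41 S phase genes (median 0.25), beside 49.0% of all genes and a median of all genes of -0.00. The part of the cell cycle in the higher Chek1, Chek2 and Mdc1 was not tested. Within the 4 largest granulosa-like clusters, the Chek2 ratio was 0.08, 0.35, 0.13 and 0.58, and Chek1 ran from -0.36 to 0.44.

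Trp53 mRNA was nearly flat. Granulosa-like cells read 83.6 CPM in control and 88.2 in doxorubicin (0.08, 0.02 to 0.13), and 95.9 in AMH and 92.1 in doxorubicin+AMH (-0.06, -0.11 to -0.01), so that the sign differed between the 2 comparisons. Stroma-like cells read 66.6, 63.8, 67.6 and 65.8 CPM, with doxorubicin against control at -0.06 (-0.15 to 0.03). Cdkn1a, the classic p53 target that encodes the CDK inhibitor p21, went from 10.9 to 39.3 CPM in granulosa-like cells (1.85, 1.73 to 1.98) and from 38.4 to 269 in stroma-like cells (2.81, 2.73 to 2.90) in the same comparison. With AMH in both libraries Cdkn1a went from 15.1 to 22.7 CPM (0.59, 0.48 to 0.70) and from 53.1 to 79.9 (0.59, 0.49 to 0.69). Mdm2, which encodes the ubiquitin ligase that p53 induces and that degrades p53, went from 41.6 to 48.4 (0.22, 0.14 to 0.29) and from 33.8 to 76.5 CPM (1.18, 1.08 to 1.28) for doxorubicin against control, and was at 0.02 (-0.06 to 0.09) and 0.32 (0.17 to 0.46) with AMH in both. In the stroma-like cluster led by Dpt, Clec3b and C3, Cdkn1a read 132, 1605, 285 and 161 CPM while Trp53 read 49.6, 44.8, 51.2 and 60.7. The Trp53 ratio of doxorubicin to control in the 5 stroma-like clusters lay between -0.15 and -0.02, and all 5 intervals include 0.

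**Figure D3:**
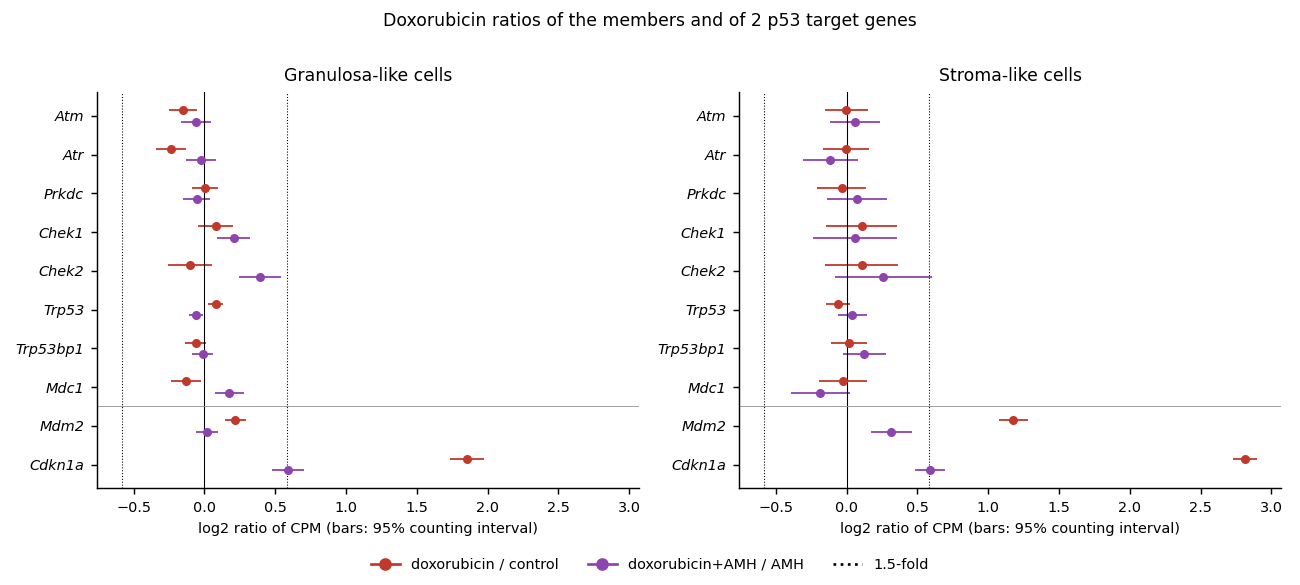
Log2 ratio of doxorubicin to control and of doxorubicin+AMH to AMH (x axis) for the 8 genes and the p53 targets Mdm2 and Cdkn1a (rows) in granulosa-like and stroma-like cells (panels), with 95% intervals for counting error. All ratios of the 8 genes lie between -0.24 and 0.39, while Cdkn1a lies at 1.85 and 2.81 for doxorubicin against control and at 0.59 in both classes for doxorubicin+AMH against AMH.

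The design also asks what AMH changed. Between the AMH and control libraries, 0 of 8 genes differed by 1.5-fold in granulosa-like cells (4.35% of all genes) and 0 of 8 in stroma-like cells (2.24%), and between doxorubicin+AMH and doxorubicin the counts were again 0 of 8 (6.25% and 2.61%). In granulosa-like cells 7 of the 8 lay below 0 in AMH against control, in which 33.0% of all genes lay above 0. The intervals of 5 lay below 0, and the share of all genes with such intervals was not counted. Atr was at 26.4 CPM in control and 20.9 in AMH (-0.34, -0.43 to -0.24), Atm at 27.4 and 22.0 (-0.32, -0.41 to -0.22), and Prkdc at 31.7 and 26.8 (-0.25, -0.34 to -0.16). Trp53bp1 was at 48.8 and 41.2 (-0.24, -0.32 to -0.17) and Chek2 at -0.19 (-0.34 to -0.04). Trp53 was the only one of the 8 above 0, at 83.6 and 95.9 CPM (0.20, 0.15 to 0.25). The median of all genes in this comparison was -0.08, and scaling by the median of ratios in place of class totals moved every ratio up by 0.10, to -0.23 for Atr, -0.21 for Atm, -0.14 for Prkdc and Trp53bp1, -0.08 for Chek2 and 0.30 for Trp53, while Chek1 and Mdc1 went from -0.08 each to 0.02 and 0.03.

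The granulosa-like cluster makeup also differed between libraries, and median UMIs per granulosa-like cell were 22286 in control and 16091.5 in AMH. Inside the 4 largest clusters, led by Kcnq5, Inhba, Fst and Cntn4, the AMH to control ratio of Atr was -0.31, -0.25, -0.21 and -0.20 and that of Trp53bp1 -0.22, -0.16, -0.13 and -0.33. Trp53 was at 0.27, 0.20, 0.23 and 0.03. Atm was less even, at -0.12, 0.12, -0.31 and -0.73. The doxorubicin+AMH against doxorubicin comparison shares no library with AMH against control. There, in granulosa-like cells, Prkdc was at 31.8 CPM in doxorubicin and 25.7 in doxorubicin+AMH (-0.31, -0.40 to -0.21), Atm at -0.22 (-0.33 to -0.12), Trp53bp1 at -0.19 (-0.27 to -0.12), Atr at -0.12 (-0.23 to -0.01) and Trp53 at 0.06 (0.01 to 0.12). Chek2 (0.31, 0.15 to 0.46) and Mdc1 (0.23, 0.12 to 0.33) lay above 0, so that the sign of Chek2 differed from that in AMH against control, and 37.5% of all genes lay above 0. G2/M genes moved with these 2 values (52 of 52 above 0, median 0.51), and their part was not tested. Median-of-ratios scaling moved the values of this comparison up by 0.11, which left Prkdc at -0.20, Atm at -0.12, Trp53bp1 at -0.09 and Atr at -0.01. In these sums the large kinases and Trp53bp1 were lower in the 2 libraries with AMH than in the 2 without, for Atm at 22.0 and 21.1 against 27.4 and 24.7 CPM and for Prkdc at 26.8 and 25.7 against 31.7 and 31.8. This did not hold for each gene under every alternative, since Prkdc was at 0.049 for AMH against control with each cell weighted equally, and Atr at 0.044 for doxorubicin+AMH against doxorubicin with doublets left in. In stroma-like cells the same 4 genes had intervals that include 0 in both comparisons. Chek2 had an interval below 0 in stroma-like cells for AMH against control, at -0.41, the lowest of the 8. Mdc1 had one for doxorubicin+AMH against doxorubicin, at -0.22. The stroma-like sums held 342 to 593 UMIs of Prkdc and the granulosa-like sums 1622 to 2075, so the intervals are wider in stroma-like cells. Whether the classes differ was not tested.

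Over all 6 classes and 4 comparisons, 178 of 192 ratios passed the filter on low counts and 21 of them (11.8%) reached 1.5-fold, beside 9.61% of all genes over the same classes and comparisons. The number was 11 with a pseudocount of 5 CPM and 33 with each cell weighted equally. In the 4 classes with most UMIs (granulosa-like, theca-like, stroma-like and mural smooth muscle-like) it was 3 of 120 (2.50%), beside 4.87% of all genes, and all 3 were Chek2. In theca-like cells 18.4% of all genes did so for doxorubicin+AMH against doxorubicin, where Chek2 was at 10.9 CPM in doxorubicin and 5.95 in doxorubicin+AMH (-0.87, -1.22 to -0.52). The makeup of theca-like cells differed between libraries. The cluster led by Lhcgr, Prss35 and Aldh1a1 held 36, 28, 571 and 734 cells and that led by Cyp17a1, Cyp11a1 and Lhcgr 685, 440, 62 and 56. Inside the 3 theca-like clusters the Chek2 ratio was between -0.91 and -0.41, and each interval includes 0. Trp53 in theca-like cells was at 73.3, 65.1, 61.3 and 62.6 CPM, with doxorubicin against control at -0.17 (-0.27 to -0.07) and AMH against control at -0.23 (-0.34 to -0.12). Genes of tissue dissociation stress moved with the latter comparison, with 19 of 19 above 0 (median 0.65). The count was 17 of 19 for doxorubicin against control (median 0.13) and 16 of 19 for doxorubicin+AMH against doxorubicin (median 0.30). Their part in the theca-like values of the 8 genes was not tested. In granulosa-like cells the medians of this list lay between -0.04 and 0.04 in the 4 comparisons.

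In mural smooth muscle-like cells Chek2 read 9.45, 3.18, 4.69 and 7.42 CPM, from 127, 29, 54 and 94 UMIs. The ratio of doxorubicin to control was -1.57 (-2.20 to -0.98; 3.93% of all genes reached 1.5-fold) and that of doxorubicin+AMH to AMH -0.66 (-1.17 to -0.16; 4.16%). Without the 1 AMH barcode of this class that carried oocyte markers (10 UMIs of Chek2, in the cluster led by Des described next), the latter was -0.52, under 1.5-fold. The intervals of the other 7 genes include 0 in all 4 comparisons of this class. The numbers of cells per cluster moved with these values. A cluster led by Des, Myh11 and Actg2 held 204, 20, 56 and 179 cells and read 20.3, 20.3, 19.5 and 21.7 CPM of Chek2. Its doxorubicin value rests on few UMIs, since the class held 29 with this cluster and 23 without it. Such counts could not show a moderate change. Without this cluster the class read 6.45, 2.61, 3.85 and 3.68 CPM, a mean under the 5 CPM required of the other ratios. Taken all the same, the ratio of doxorubicin+AMH to AMH became 0.07 (-0.61 to 0.74), while that of doxorubicin to control was -1.31 (-2.06 to -0.61), from 23 UMIs in the doxorubicin library. AMH against control, which has no doxorubicin, was then at -0.81 (-1.43 to -0.21), so that the control library lay above the other 3. The cluster led by Myh11, Acta2 and Actg2 alone, also under that mean, gave -1.39 (-2.27 to -0.58). These clusters were examined after the class value was seen.

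**Figure D4:**
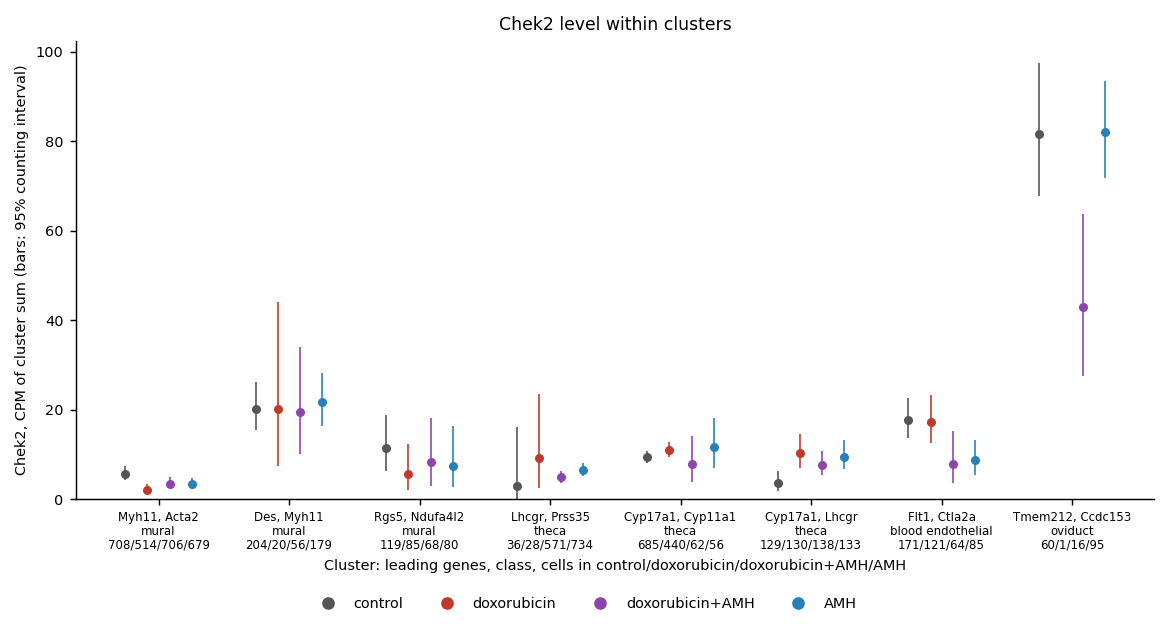
CPM of Chek2 (y axis from 0) in 8 clusters (x axis), with 1 point per library that holds at least 15 cells of the cluster and bars for the 95% counting interval. The cluster led by Tmem212 reaches 42.9 to 82.2 CPM. The Des cluster reads 19.5 to 21.7 CPM, with only 20 cells in the doxorubicin library.

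Chek2 was highest outside the compared classes. Oviduct epithelial-like cells, present as 145, 1, 50 and 239 cells, read 32.7, 34.0 and 41.0 CPM in control, doxorubicin+AMH and AMH, and the single doxorubicin cell gives no level. Within them a cluster led by Tmem212, Ccdc153 and Dnah5, genes of motile cilia, read 81.8, 42.9 and 82.2 CPM in the same 3 libraries, from 60, 16 and 95 cells. No compared class reached these levels, since the highest value was 17.7 CPM in blood endothelial-like cells of the control library.

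The 2 smallest classes carried wide counting errors. Blood endothelial-like cells read 17.7, 17.3, 7.99 and 8.75 CPM of Chek2, from 66, 43, 9 and 21 UMIs, with AMH against control at -1.02 (-1.80 to -0.29; 16.0% of all genes reached 1.5-fold) and doxorubicin+AMH against doxorubicin at -1.11 (-2.33 to -0.06; 17.9%). Cell cycle genes moved with both values. For AMH against control 0 of 38 S phase genes (median -0.79) and 0 of 48 G2/M genes (median -0.89) lay above 0, and for doxorubicin+AMH against doxorubicin 5 of 38 (median -0.35) and 5 of 46 (median -0.43). Their part in the lower Chek2 was not tested. The doxorubicin+AMH sum of this class also held 6089 CPM of erythroid markers, against 17.5, 16.1 and 382 in control, doxorubicin and AMH. Macrophage-like cells held 30, 5, 22 and 17 UMIs of Atm (18.3, 6.48, 20.5 and 9.72 CPM), giving -1.50 (-3.22 to -0.12) for doxorubicin against control and 1.08 (0.10 to 2.08) for doxorubicin+AMH against AMH. Other lists moved in this class too. Genes of dissociation stress lay above 0 in 4 of 18 (median -0.29) and 1 of 19 (median -0.37), S phase genes in 19 of 33 (median 0.09) and 31 of 35 (median 0.63), and G2/M genes in 10 of 44 (median -0.43) and 31 of 44 (median 0.25), and their part was not tested. In this class 23.6% and 23.9% of all genes reached 1.5-fold in these 2 comparisons. Trp53, with 42 to 83 UMIs per library, had intervals that include 0 in all 4 comparisons of macrophage-like cells.

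The genes around the 8 were described through fixed lists. For doxorubicin against control, 44.99% of all genes lay above 0 in granulosa-like and 43.0% in stroma-like cells. Among partners of the sensor kinases, such as the MRN complex, RPA, the ATR clamp and loader, Ku and the ubiquitin ligases of the break response, 15 of 30 measured genes lay above 0 and 15 below for doxorubicin against control in granulosa-like cells (median -0.00), and 16 above and 13 below of 29 in stroma-like cells (median 0.00). None reached 1.5-fold in either class. For doxorubicin+AMH against AMH, 24 of 30 lay above 0 in granulosa-like (median 0.08) and 23 of 29 in the other class (median 0.08), beside 49.0% and 57.9% of all genes. The one at 1.5-fold was H2afx, which encodes histone H2AX, at 44.98 CPM in AMH and 68.5 in doxorubicin+AMH of granulosa-like cells (0.61), named after its value was seen. G2/M genes moved with these counts, with 52 of 52 above 0 in granulosa-like (median 0.44) and 48 of 49 in stroma-like cells (median 0.27), as did S phase genes (41 of 41, median 0.25, and 23 of 37, median 0.06). The part of these cell cycle genes in this list and the next was not tested. The lists share genes. Tipin and Clspn are also in the S phase list, and Cdk1 and Cdc25c of the next list in the G2/M list. The ends of the list for doxorubicin against control in granulosa-like cells were Tti2, a PIKK chaperone subunit (6.33 and 7.20 CPM in control and doxorubicin, 0.19), Tipin, a replication fork factor (49.8 and 55.5, 0.16), Rad50 of the MRN complex (103 and 89.5, -0.21) and Nhej1, an end-joining factor (17.0 and 14.5, -0.23). In stroma-like cells they were Tipin (0.14), Rpa3 (0.13), Tti2 (-0.27) and Dclre1c, the nuclease Artemis (-0.34).

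Of the genes that CHK1 and CHK2 act on or that drive the cycle they hold, 8 of 11 lay above 0 in granulosa-like (median 0.06) and 9 of 11 in stroma-like cells (median 0.08), with none at 1.5-fold, for doxorubicin against control. For doxorubicin+AMH against AMH, 11 of 11 (median 0.30) and 8 of 11 (median 0.18) lay above 0. Plk1, a mitotic kinase gene named after its value was seen, reached 1.5-fold in granulosa-like cells (16.6 and 26.1 CPM, 0.65). The ends of the list for doxorubicin against control in granulosa-like cells were Ccne1 (0.21), Cdk2 (0.15), Ccne2 (-0.05) and the phosphatase gene Cdc25c (-0.11). In stroma-like cells Cdk1 was at 46.8 and 56.6 CPM (0.28), Wee1, whose kinase inhibits CDK1, at 0.24, Ccne2 at -0.03 and Pkmyt1 at -0.43. Among regulators of p53, 5 of 14 lay above 0 in granulosa-like (median -0.04) and 7 of 14 in stroma-like cells (median -0.01), and the only one at 1.5-fold was Mdm2, in the latter class. For doxorubicin+AMH against AMH these counts were 5 of 14 (median -0.05) and 10 of 14 (median 0.07). For doxorubicin against control, Mdm2 (0.22) and the phosphatase gene Ppm1d (0.11) were the highest in granulosa-like cells, and Trp53bp2 (-0.21) and the acetyltransferase gene Crebbp (218 and 183 CPM, -0.25) the lowest.

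The p53 targets had the medians farthest from that of all genes, -0.02 in both classes, among these 4 lists for doxorubicin against control. In granulosa-like cells 20 of 24 measured targets lay above 0 (median 0.25) and 6 reached 1.5-fold upward, beside 0.497% of all genes. In stroma-like cells 20 of 24 lay above 0 (median 0.81) and 15 reached 1.5-fold upward, beside 0.681%. Without the cluster led by Dpt and Clec3b the stroma-like median was 0.53. Their highest genes were Cdkn1a and Eda2r, a TNF receptor family member, at 6.33 and 18.7 CPM in granulosa-like (1.56) and 12.2 and 66.6 in stroma-like cells (2.45). The lowest were Plk3 and Sesn1 in granulosa-like cells (-0.04 each) and Tnfaip8 (-0.16) and Xpc (-0.24) in stroma-like cells. For doxorubicin+AMH against AMH, the median of the targets was 0.07 in granulosa-like and 0.18 in stroma-like cells, with 2 of 24 at 1.5-fold upward in each (0.553% and 0.529% of all genes). These targets were chosen with results of these libraries known, so their direction is not independent evidence. In these lists, as in the 8 genes, the difference between the 2 doxorubicin comparisons was not tested.

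Chek1 was also abundant in a few barcodes that carried oocyte transcripts. A search made after the cluster values were seen, for barcodes with at least 5 of 7 oocyte markers and at least 50 UMIs of them, found 9 barcodes, of which the control library held 2, doxorubicin 3, AMH 4 and doxorubicin+AMH 0. They held 70469 to 210390 UMIs each, and 8 lay in granulosa-like clusters. Summed per library, they read 55.3 (control), 228 (doxorubicin) and 66.9 (AMH) CPM of Chek1. The doxorubicin value came from 2 barcodes with 28 and 56 UMIs of Chek1 (231 and 294 CPM), which also held 375 and 595 UMIs of Gdf9 and 54 and 108 of Bmp15, both growth factors of the oocyte, while the third held 3 UMIs of Chek1. The other 7 barcodes held 1 to 26 UMIs of Gdf9 and 0 to 3 of Bmp15, so the barcodes differ in how many oocyte transcripts they carry. Trp53 read 47.0, 47.2 and 46.5 CPM in these sums, below granulosa-like cells, and Trp63, the p53 relative of oocytes, 49.8, 18.3 and 52.0. Without these barcodes the granulosa-like Chek1 level was 16.3, 16.2, 18.0 and 15.3 CPM, and its ratio of doxorubicin to control went from 0.08 to -0.01 (-0.14 to 0.11).

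**Figure D5:**
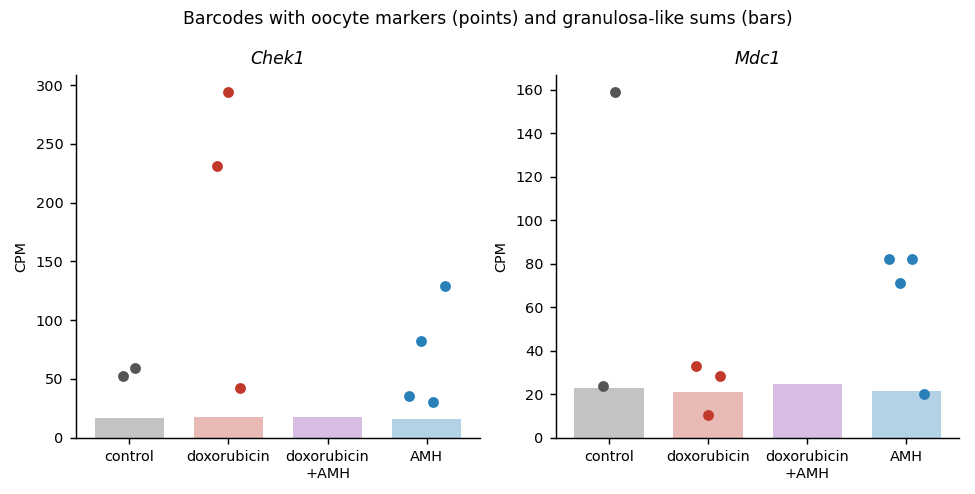
CPM of Chek1 and Mdc1 (y axis) in each of the 9 barcodes with oocyte markers (points, by library), beside the level of all granulosa-like cells of that library (bars). Of the 3 doxorubicin barcodes, 2 lie at 231 and 294 CPM of Chek1 and the third at 42.6 CPM, and 1 control barcode lies at 159 CPM of Mdc1.

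The genes most like each of the 8 were ranked by Pearson's r of log2(CPM + 1) over the 24 sums of 6 classes and 4 libraries. The 24 points share libraries and classes, so r is a description. Chek1 was closest to Dut (0.963), which encodes the dUTPase of nucleotide supply, Anp32b (0.958) and Hells (0.946), a chromatin remodeller of the S phase list. Mdc1 was closest to Fscn1 (0.870), Rrm1 (0.854), a subunit of ribonucleotide reductase, and the condensin gene Smc4 (0.850). Chek2 had lower values, with Secisbp2 (0.781), the end-joining gene Xrcc4 (0.768) and Nacc1 (0.752). Trp53 was closest to Cnot6 (0.930), the splicing gene Prpf8 (0.918) and Ptbp1 (0.915), and Trp53bp1 to Adgra3 (0.957), Tfdp2 (0.954) and Dtnb (0.948). For the sensor kinases the first gene was Tmem237 for Atm (0.902), Fars2 for Prkdc (0.894) and Focad for Atr (0.802).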

How the data were processed

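Cells from 4 libraries were measured with a droplet kit for 3′ transcript ends (Chromium 3′ v3.1). The values are counts: the authors deposited UMI counts per gene and barcode, not normalized, and the file headers name Cell Ranger 7.0.0. Build mm10, R 4.2.0 and Seurat 4.1.0 are named in the submitters' processing notes. Whether intronic reads or strand were used in counting is not given in the sources used here. Depth was 138647495 to 178279122 UMIs per library, with medians of 9834.5 to 13575 per deposited barcode. The 8 genes and the gene lists were chosen with earlier results of these data known.

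Barcodes under 1000 UMIs or over 20% mitochondrial UMIs were removed. The highest Scrublet doublet scores were removed at 0.8% per 1000 barcodes. Clustering (scanpy 1.11.5, leidenalg 0.10.2) used 2000 variable genes without the 8 genes and the lists, 30 principal components, 20 neighbours and resolution 1. A cluster was named where at least 3 markers and 60% of a class's marker list stood out (log2 difference of 1, in at least 10% of cells), thresholds set after seeing the data. A cluster of 128 cells led by Cd74, H2-Eb1 and H2-Aa was left unnamed after its leading genes were seen.

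UMIs were summed per class and library. Ratios between libraries were taken for genes whose mean reached 5 CPM, with more than 3 UMIs in each of the 2 libraries, with exact conditional 95% intervals. Classes were compared with edgeR 4.0.16 (quasi-likelihood, TMM, library block, Benjamini-Hochberg over all genes, 0.05). The libraries serve as replicates of a class although they differ in treatment, and each pairs its own class sums, so the block follows from the design. On simulated counts this test found 48 of 50 genes changed 1.5-fold between classes (18896 genes) and 50 of 50 between cycle-gene-high and other cells (17232 genes). At 1.25-fold it found 14 of 50 and 17 of 50. The class simulation used granulosa-like and stroma-like sums only. Both simulations gave every gene the same spread and had no library effect. Alternatives were other scalings, filters, pseudocounts, DESeq2 1.42.0, equal cell weights, a marker gate per cell with thresholds also set after seeing the data, and leaving out libraries or clusters. Named genes are the 8, in each list the 2 highest and 2 lowest by doxorubicin against control in granulosa-like and stroma-like cells, and the 3 genes most like each of the 8, and others are said to be chosen after their values were seen. S phase and G2/M genes are given as counts only. Promoter letters came from RefSeq and positions from GENCODE vM21.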

Additional observations from a re-analysis of the deposited data

Results flagged for a closer look

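Chek2 ratios had counting intervals on opposite sides of 0 in different classes. For doxorubicin against control Chek2 was at 0.33 in theca-like and -1.57 in mural smooth muscle-like cells, and for doxorubicin+AMH against AMH at 0.39 in granulosa-like and -0.66 in mural smooth muscle-like cells. For doxorubicin+AMH against doxorubicin it was at 0.31 in granulosa-like, -0.87 in theca-like and -1.11 in blood endothelial-like cells. Beside the value of 0.33, the theca-like cluster led by Cyp17a1, Lhcgr and Sct read 3.66 CPM in control and 10.3 in doxorubicin. It held 129 and 130 of the 850 and 598 theca-like cells of these libraries. Its values do not give the level of the rest. G2/M genes moved with the value of 0.33 in theca-like cells (36 of 39 above 0, median 1.17), as did S phase genes (21 of 27, median 0.13), and their part was not tested. The differences between classes were not tested, since each group has 1 library.

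Atm showed such opposite signs too. For AMH against control Atm was at 0.33 in theca-like, -0.32 in granulosa-like and -0.91 in macrophage-like cells, and for doxorubicin+AMH against doxorubicin at 1.66 in macrophage-like and -0.22 in granulosa-like cells. In macrophage-like cells it was at -1.50 for doxorubicin without AMH and 1.08 for doxorubicin with AMH, from 5 to 30 UMIs per library. Beside the theca-like value of 0.33, the ratio inside the 3 theca-like clusters was between -0.35 and 0.10 with intervals that include 0. In the same comparison 19 of 19 genes of tissue dissociation stress (median 0.65) and 33 of 39 G2/M genes (median 1.16) lay above 0. The part of both lists was not tested. Mdc1 was at 0.41 in theca-like and -0.22 in stroma-like cells for doxorubicin+AMH against doxorubicin, and the stroma-like value turned to 0.045 with each cell weighted equally. These differences were not tested either.

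Chek1 in barcodes with oocyte transcripts, which form no class of their own and lie within the granulosa-like and mural smooth muscle-like sums, reached 228 CPM in the doxorubicin library, above the 55.3 CPM of the control barcodes. It rests on 2 of 3 barcodes, and no doxorubicin+AMH barcode met the rule.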

How the results depend on the processing

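Most values stayed within their interval or kept their call under the alternatives. Of the ratios of the 8 genes between libraries, 1593 stayed within their interval, 67 moved outside it and 4 reversed. A ratio counts as reversed only where its interval excluded 0. Changes of sign within an interval that includes 0 are not among the 4. Chek1 in granulosa-like cells for doxorubicin against control, from 0.08 to -0.01 without the barcodes with oocyte markers, is such a change. Of the class comparisons 375 kept their call, 16 lost it, 8 gained it and 1 reversed. The number of ratios at 1.5-fold over 6 classes was 21, and became 11 with a pseudocount of 5 CPM and 33 with each cell weighted equally. Over the 4 large classes it was 3, and became 1 with a pseudocount of 5 CPM and 1 without the Des cluster, where Chek2 in mural smooth muscle-like cells fell under the 5 CPM filter although its ratio of doxorubicin to control was -1.31, and 2 without the barcodes with oocyte markers, where Chek2 in that class was -0.52 for doxorubicin+AMH against AMH. The share of all genes at 1.5-fold with the low-value filter raised to 20 CPM was 0.241% and 0.95% in granulosa-like and 0.51% and 0.84% in stroma-like cells (doxorubicin against control, and with AMH in both). Reversed ratios were Prkdc in granulosa-like cells for AMH against control (0.049 with cells weighted equally, from -0.25), Atr in granulosa-like cells for doxorubicin+AMH against doxorubicin (0.044 with doublets left in, from -0.12), Mdc1 in stroma-like cells for the same comparison (0.045 with cells weighted equally, from -0.22) and Chek2 in mural smooth muscle-like cells for doxorubicin+AMH against AMH (0.066 without the Des cluster, from -0.66). Of list medians in granulosa-like cells for AMH against control, that of the p53 regulators became 0.065 and that of the S phase genes 0.022 with median-of-ratios scaling, and the latter 0.020 with cells weighted equally. The partners of the sensors became 0.12 in stroma-like cells for doxorubicin+AMH against AMH with cells weighted equally, and the p53 targets went from 0.81 to 0.53 for doxorubicin against control without the cluster led by Dpt and Clec3b. The cause of these changes was not tested.

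Without the library as a block, the numbers of the 8 genes called were 5, 6, 6, 6 and 7 against theca-like, stroma-like, mural smooth muscle-like, blood endothelial-like and macrophage-like cells, so the block changed no such count. Between cycle-gene-high and other granulosa-like cells the number was 4 without the replicate block and 6 with it, as Atm (adjusted p = 0.057, edgeR) and Trp53 (adjusted p = 0.27) were lost. Over all genes the calls of this comparison were 5141 without the block and 8821 with it. Leaving out 1 library at a time gave 3 to 5 genes called against theca-like, 5 to 6 against stroma-like, 5 to 6 against mural smooth muscle-like, 6 to 6 against blood endothelial-like, 4 to 6 against macrophage-like and 6 to 6 between cycle-gene-high and other cells. Chek2 against macrophage-like cells, at 0.12 with all libraries, ran from -0.019 without the doxorubicin library (adjusted p = 0.96, edgeR) to 0.33 without the AMH library. With library totals in place of TMM scaling, the median of all genes went from -0.00 to 0.13 against theca-like and from 0.22 to 0.39 against macrophage-like cells. The calls against theca-like cells went from 5393 higher and 5521 lower to 6668 and 4535, and Prkdc (0.24, adjusted p = 0.031) and Trp53bp1 (0.25, adjusted p = 0.038) were then called, as was Trp53bp1 lower in cycle-gene-high cells (-0.12, adjusted p = 0.020). With all genes kept or with DESeq2, Atr was called against stroma-like cells (adjusted p = 0.024 and 0.036), and DESeq2 lost Mdc1 against macrophage-like cells (adjusted p = 0.068). Excluding the barcodes with oocyte markers, the Des cluster, the Dpt cluster and the granulosa-like clusters of 1 library were alternatives chosen after seeing the data. Depth limits the blood endothelial-like and macrophage-like classes most, where single ratios rest on as few as 5 UMIs.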

Other observations

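Classes with fewer than 50 cells in some library were left out of the comparisons, and their levels are given here as values. Oviduct epithelial-like cells read 22.5, 44.6 and 30.4 CPM of Trp53 in control, doxorubicin+AMH and AMH, and 2.25, 4.85 and 1.53 of Chek1, from 9, 5 and 10 UMIs. The same class read 30.5, 39.8 and 26.4 CPM of Prkdc and 43.7, 32.0 and 43.4 of Trp53bp1, so that the low values of Trp53 and Chek1 were not shared by every one of the 8 genes.

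Surface epithelial-like cells read 68.6, 58.0, 55.6 and 59.8 CPM of Trp53 in the 4 libraries (control, doxorubicin, then doxorubicin+AMH, then AMH). Their Atm was at 24.5, 22.8, 33.0 and 26.8 CPM, from 81, 70, 19 and 43 UMIs. Lymphatic endothelial-like cells read 78.1, 67.5, 91.7 and 75.0 CPM of Trp53 and 27.8, 24.7, 30.6 and 20.9 of Atm. T or NK lymphocyte-like cells read 81.3, 112, 91.7 and 75.7 CPM of Trp53, from 41, 25, 39 and 28 UMIs, and their Chek1 rested on 0 to 4 UMIs per library.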
